A study of Mus musculus with 8 samples.

Results

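The genes described here build, cross-link and cut the extracellular matrix. They were taken by symbol: every collagen chain (Col), laminin chain (Lam), Adamts protease, matrix metalloproteinase (Mmp), tissue inhibitor of metalloproteinases (Timp1 to Timp4) and lysyl oxidase (Lox, Loxl1 to Loxl4), together with the glycoproteins Fn1 (fibronectin) and Sparc, the collagen chaperone Serpinh1 and the calcium-binding protein S100a4. The rule found 97 of the 18193 genes on the array, each read through its brightest probe set, the group of short oligonucleotides that reports 1 transcript region.

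Collagens and laminins are secreted as trimers. Fibrillar collagens form the cables of connective tissue, whereas collagen IV and the laminins assemble into the sheet of the basement membrane, the first matrix that an embryo makes and the one on which epithelial and pluripotent cells sit. Lysyl oxidases cross-link the chains, Mmp and Adamts proteases cut them and the proteoglycans around them, and Timp proteins block the Mmp enzymes. In bone marrow most of this matrix is made by stromal, vascular and bone-lining cells, and blood stem cells are usually described as its users rather than its main source.

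Zfx is an X-linked zinc finger transcription factor needed for self-renewal of embryonic and adult blood stem cells. RNA was hybridised to Affymetrix whole-genome mouse arrays, 2 per group and 8 in all. Embryonic stem cell (ESC) clones were Zfx-null, with the gene deleted, or Zfx-flox, with the gene intact between loxP sites. Both grew without feeder cells on gelatin with Knockout serum replacement and LIF. The HSC groups were Lin- Sca-1+ c-Kit+ bone marrow cells, a sort that holds hematopoietic stem cells along with multipotent progenitors. HSC Zfx-cko came from Mx1-Cre+ Zfx flox/y males and HSC Zfx-flox from Cre-negative Zfx flox/y littermates. All of these mice had received pI·C, an inducer of interferon that switches on Mx1-Cre, with the last injection 4 days before marrow from several mice was pooled. Cre activity was thus present in Zfx-cko mice and not in their littermates, and Mx1-Cre also acts in marrow cells other than blood stem cells. The design text speaks of duplicate hybridisations, so both arrays of a group may come from 1 RNA sample, and p-values then measure a spread that may be technical. The labels state neither the strain and age of the mice nor how many ESC clones were used.

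The Zfx probe set read 1.32 and 0.878 on the Zfx-null ESC arrays, against 285 and 298 on the Zfx-flox ESC arrays. In HSC it read 1.34 and 0.305 in Zfx-cko and 7.22 and 0.971 in Zfx-flox, too dim to check the deletion. Within a group, the log2 values of both arrays had a Pearson's r of 0.980 to 0.987, against 0.965 to 0.971 between the ESC groups and 0.963 to 0.965 between the HSC groups. The ESC markers Pou5f1, Nanog, Sox2 and Zfp42 were bright in ESC, although their summed signal was 8093 and 8529 in Zfx-null and 12368 and 12574 in Zfx-flox. By the limma test described below, Pou5f1 and Nanog were lower in Zfx-null (adjusted p = 0.0189 and 0.00322). Sox2 and Zfp42 did not pass. Kit, Cd34 and Ptprc were bright in HSC, with a summed signal of 8166 and 8115 in Zfx-cko and 3934 and 4031 in Zfx-flox. All 3 were higher in Zfx-cko by limma (adjusted p = 0.0226, 5.22e-06 and 0.00261). Kit was bright in ESC too, at 1124 and 969 in Zfx-flox ESC beside 1122 and 1174 in Zfx-flox HSC.

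Signals are the linear, globally scaled intensities that the authors deposited, in arbitrary units. Changes are given as log2 of (signal + 14.2) ± SE, with the added constant set at the 25th percentile of the deposited signals, which understates the change of a dim gene. A gene was tested where its mean on that log2 scale over the 4 arrays of a cell type reached the 40th percentile of all probe sets, which corresponds to a steady signal of 39.1 in ESC and 25.4 in HSC. The test was limma's moderated test with p-values adjusted over all probe sets tested, at a threshold of 0.05. By that filter 73 of the 97 matrix genes were tested in ESC and 43 in HSC, 40 of them in both, and 21 in neither. Among the 73, Col25a1, Lama4 and Mmp13 reached the filter through the Zfx-null arrays only, and Col9a2 through the Zfx-flox arrays only. In HSC, Sparc, Col19a1 and Lamc3 reached it through the Zfx-cko arrays only and Adamts8 through the Zfx-flox arrays only. Signals at or under 14.2 are called the floor below. More matrix genes lay there in HSC: 29 genes in Zfx-cko and 27 in Zfx-flox had both arrays under a signal of 14.2, against 6 in Zfx-null ESC and 8 in Zfx-flox ESC. ESC and HSC signals were not tested against each other, because the HSC RNA went through an extra round of amplification. The log2 ratio of 5′ to 3′ Gapdh control signal was 0.377 to 0.437 on the ESC arrays and -4.68 to -4.18 on the HSC arrays. The HSC arrays thus read far less signal from the 5′ end of Gapdh. The part of this in disagreements between HSC probe sets was not tested.

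Loss of Zfx in ESC went with higher signal of a wide range of matrix genes. Of the 73 genes tested, 34 rose, where 15.3% of all tested genes rose, and 3 fell, where 14.3% of all tested genes fell. Their median change was 0.57 on the log2 scale, beside -0.03 over all genes tested, and 23 of the 34 rose by 2-fold or more. Lama4 and Mmp13 are counted in the 34 and in the 23. They were tested only because their Zfx-null arrays were bright, so their calls are not separate support for a rise. The genes that rose came from fibrillar collagens, collagen IV and its neighbours, Adamts proteases, stromal metalloproteinases and their inhibitors, among others. Of 8 laminin chains tested 2 rose and 1 fell, and Loxl1, Loxl3, Loxl4 and Fn1 did not pass. Each array read a mass of cells, so more cells of a matrix-producing type and more RNA per cell cannot be told apart.

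**Figure D1:**
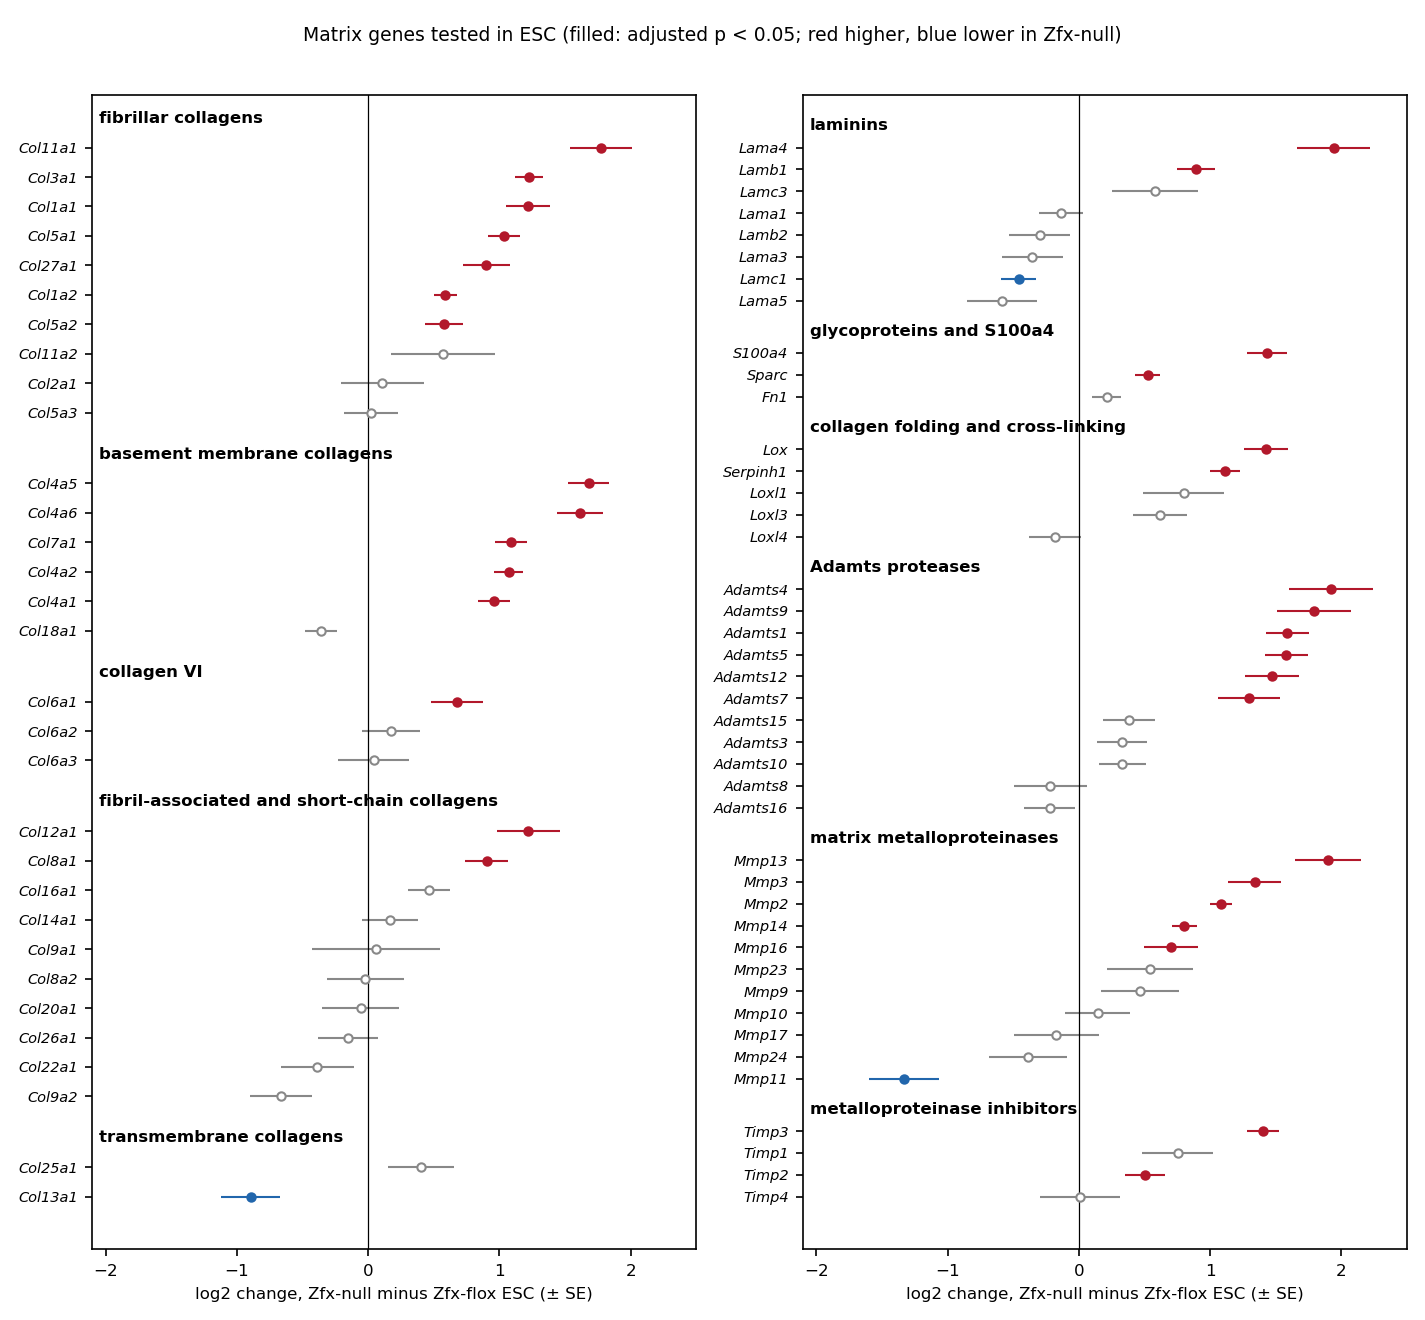
Change of each tested matrix gene in ESC, as log2(signal + 14.2) in Zfx-null minus Zfx-flox with bars of 1 SE (2 arrays per group), grouped by role. Of the 73 genes, 34 lie right of 0 past the adjusted threshold and 3 left of it.

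Among the fibrillar collagens, 7 of the 10 tested rose and 0 fell by limma at the adjusted threshold. Over all tested genes 15.3% rose and 14.3% fell. The other 3 fibrillar collagens did not reach an unadjusted p under 0.05. Col11a1, the type XI chain that sets fibril diameter in cartilage, read 3522 and 3589 in Zfx-null ESC, against 1044 and 1017 in Zfx-flox ESC (1.77 ± 0.23, adjusted p = 0.000889). Col3a1, the type III chain of elastic and fetal tissues, read 6024 and 6277 in Zfx-null ESC and 2611 and 2630 in Zfx-flox ESC (1.23 ± 0.10, adjusted p = 0.000101). Both chains of type I collagen, the most abundant protein of connective tissue, were also higher. Col1a1 read 3617 and 3851 in Zfx-null ESC and 1662 and 1532 in Zfx-flox ESC (1.22 ± 0.17, adjusted p = 0.00106). Its partner Col1a2 read 9969 and 10759 in Zfx-null ESC and 6628 and 7154 in Zfx-flox ESC, a change of 0.59 ± 0.09 (adjusted p = 0.00162). The other Col1a2 probe sets changed more, by 1.01 ± 0.10 and 1.87 ± 0.18 (adjusted p = 0.000211 and 0.000207), and the mean of the 3 by 1.16. Type V collagen starts fibrils on which type I assembles. Its chain Col5a1 read 1652 and 2133 in Zfx-null ESC and 865 and 953 in Zfx-flox ESC (1.04 ± 0.12, adjusted p = 0.000496), and Col5a2 changed by 0.58 ± 0.14 (adjusted p = 0.0173). Col27a1, a cartilage fibrillar chain, read 223 and 185 in Zfx-null ESC and 93.2 and 112 in Zfx-flox ESC (0.90 ± 0.18, adjusted p = 0.00661). For all 7 genes the arrays of both groups were fully separate. Col2a1, the main cartilage collagen, read 273 and 312 in Zfx-null ESC and 265 and 275 in Zfx-flox ESC and did not pass (adjusted p = 0.846). Col5a2 lost its call when any 1 of the 4 ESC arrays was left out (adjusted p of 0.0568 to 0.117), and Col27a1 without Zfx-null array 1 (0.0542).

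Of 6 collagen chains of the basement membrane tested, 5 rose, where 15.3% of all tested genes rose. Col4a1 and Col4a2, which form the common collagen IV trimer, read 3912 and 3814, and 1892 and 2001, in Zfx-null ESC. In Zfx-flox ESC they read 1957 and 2005, and 955 and 885. Their changes were 0.96 ± 0.12 (adjusted p = 0.000751) and 1.07 ± 0.11 (adjusted p = 0.000268). The larger changes were those of the Alport syndrome chain Col4a5, at 2170 and 2013 in Zfx-null ESC and 665 and 619 in Zfx-flox ESC (1.68 ± 0.16, adjusted p = 0.000149), and of its X-linked neighbour Col4a6, at 309 and 347 in Zfx-null ESC and 93.7 and 101 in Zfx-flox ESC (1.61 ± 0.18, adjusted p = 0.000331). Col7a1, the anchoring fibril chain that ties the basement membrane to the dermis, changed by 1.09 ± 0.12 (adjusted p = 0.000404). Col18a1, the source of endostatin, read 3278 and 3604 in Zfx-null ESC and 4337 and 4486 in Zfx-flox ESC, on the opposite side, but did not pass (-0.36 ± 0.12, adjusted p = 0.062).

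These chains are encoded in pairs. In the RefSeq gene order (assembly GRCm38.p6), 16 pairs of matrix genes are next to each other among protein-coding genes, and for 6 pairs both genes were tested in ESC. Both rose in 4 of the 6: Col4a1 with Col4a2 on chromosome 8, Col4a5 with Col4a6 on the X chromosome, Col3a1 with Col5a2 on chromosome 1 and Adamts1 with Adamts5 on chromosome 16. The pairs Col6a1 with Col6a2 and Adamts8 with Adamts15 did not. Of all 73 members tested 34 rose, and neighbouring pairs were not counted over all genes. These pairs therefore do not show that neighbours change jointly. The other tested probe set of Col5a2 changed by 0.06 and did not pass. The Col4a1 and Col4a2 genes lie on opposite strands with their starts 21 bases apart. The Col4a1 start lies past the Col4a2 start, inside Col4a2, so the genes overlap at their starts. Their promoter windows, from 250 bases before to 50 after the start, share 78 bases at the 3′ end of the Col4a2 window. The Col4a5 and Col4a6 starts lie 1343 bases apart and share none. The Col4a2 window (RefSeq, GRCm38.p6, chr8:11312555-11312854, plus strand) is printed 5′ to 3′ because its last 78 bases belong to both windows, with GC boxes (GGGCGG or its reverse complement CCGCCC, the letters that Sp1 reads) in capitals. Of its 3 boxes the last lies in the shared stretch.
Col4a2: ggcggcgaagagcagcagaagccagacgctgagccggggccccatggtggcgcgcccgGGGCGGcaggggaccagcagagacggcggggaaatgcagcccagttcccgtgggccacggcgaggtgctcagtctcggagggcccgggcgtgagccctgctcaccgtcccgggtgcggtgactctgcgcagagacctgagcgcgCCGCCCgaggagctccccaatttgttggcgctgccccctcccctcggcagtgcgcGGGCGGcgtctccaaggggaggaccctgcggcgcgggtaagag

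Collagen VI, the beaded filament of cell surroundings, had 1 of 3 tested chains higher past the threshold, where 15.3% of all tested genes rose. Col6a1 read 190 and 160 in Zfx-null ESC and 92.3 and 116 in Zfx-flox ESC (0.68 ± 0.20, adjusted p = 0.0337), whereas Col6a2 and Col6a3 changed by 0.18 and 0.04 and did not pass. Col6a1 lost its call without any 1 of the 4 ESC arrays (adjusted p of 0.0527 to 0.177). Of 10 tested fibril-associated and short-chain collagens, 2 rose (20%), a share near the 15.3% of all tested genes. Col8a1, the short chain of vessel walls and Descemet's membrane, read 1747 and 1794 in Zfx-null ESC and 908 and 972 in Zfx-flox ESC (0.90 ± 0.16, adjusted p = 0.00414). Col12a1, which coats type I fibrils, read 565 and 485 in Zfx-null ESC and 250 and 187 in Zfx-flox ESC (1.22 ± 0.24, adjusted p = 0.00645). The Col12a1 value was 0.56 (adjusted p = 0.0898) as the mean of all its probe sets, of which 2 were near the floor, and its adjusted p was 0.0519 without Zfx-null array 1 or Zfx-flox array 2. Col13a1, a transmembrane collagen of cell junctions, was 1 of 3 matrix genes that fell, to 46.2 and 36.3 in Zfx-null ESC against 103 and 75.4 in Zfx-flox ESC (-0.89 ± 0.22, adjusted p = 0.019). That call was lost without Zfx-null array 2 or Zfx-flox array 1 (adjusted p of 0.1 and 0.115).

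Of 8 laminins tested, 2 rose (25%) and 1 fell (12.5%), not far from the 15.3% and 14.3% of all tested genes. This count is therefore not read as a result about laminins. ESC are known to make laminin-111 (Lama1, Lamb1, Lamc1) and laminin-511 (Lama5 with the same beta and gamma chains). The shared beta chain Lamb1 read 3222 and 3284 in Zfx-null ESC and 1730 and 1754 in Zfx-flox ESC (0.90 ± 0.15, adjusted p = 0.00243). The shared gamma chain Lamc1 fell instead, to 1614 and 1649 in Zfx-null ESC against 2219 and 2269 in Zfx-flox ESC (-0.46 ± 0.13, adjusted p = 0.0343), although this call was lost when any 1 of the 4 ESC arrays was left out (adjusted p of 0.114 to 0.143) or its probe sets were averaged (0.542). Lama1 read 502 and 463 in Zfx-null ESC and 564 and 502 in Zfx-flox ESC (adjusted p = 0.604). Lama5 read 924 and 1119 in Zfx-null ESC and 1561 and 1508 in Zfx-flox ESC, separate groups that did not pass (-0.59 ± 0.26, adjusted p = 0.144). Lama4, the alpha chain of vessel and mesenchymal laminins, read 88.6 and 121 in Zfx-null ESC and, near the floor, 11.8 and 22.0 in Zfx-flox ESC (1.94 ± 0.28, adjusted p = 0.00135, and 2.68 with no pseudocount). It reached the filter through the Zfx-null arrays only, so its adjusted p by limma is not separate support for a rise.

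The proteins that fold and cross-link collagen included 2 genes that rose of 5 tested, where 15.3% of all tested genes rose. Lox, the lysyl oxidase that starts cross-linking, read 2674 and 2584 in Zfx-null ESC and 1014 and 924 in Zfx-flox ESC (1.43 ± 0.17, adjusted p = 0.000496). Serpinh1 (HSP47), the endoplasmic reticulum chaperone of procollagen, read 3605 and 3351 in Zfx-null ESC and 1645 and 1553 in Zfx-flox ESC (1.11 ± 0.11, adjusted p = 0.000217). Loxl1, a cross-linker of elastin, read 635 and 473 in Zfx-null ESC and 295 and 323 in Zfx-flox ESC without passing (adjusted p = 0.0925). Sparc, a collagen-binding glycoprotein, read 10273 and 11498 in Zfx-null ESC and 7558 and 7549 in Zfx-flox ESC (0.52 ± 0.09, adjusted p = 0.00412), and lost its call as the mean of all its probe sets (0.31, adjusted p = 0.0572). Fn1 was bright in both groups, at 8325 and 9063 in Zfx-null ESC and 6913 and 8132 in Zfx-flox ESC, and did not pass (0.21 ± 0.11, adjusted p = 0.201). S100a4, a marker of motile mesenchymal cells, read 413 and 383 in Zfx-null ESC and 160 and 119 in Zfx-flox ESC (1.43 ± 0.15, adjusted p = 0.000309).

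**Figure D2:**
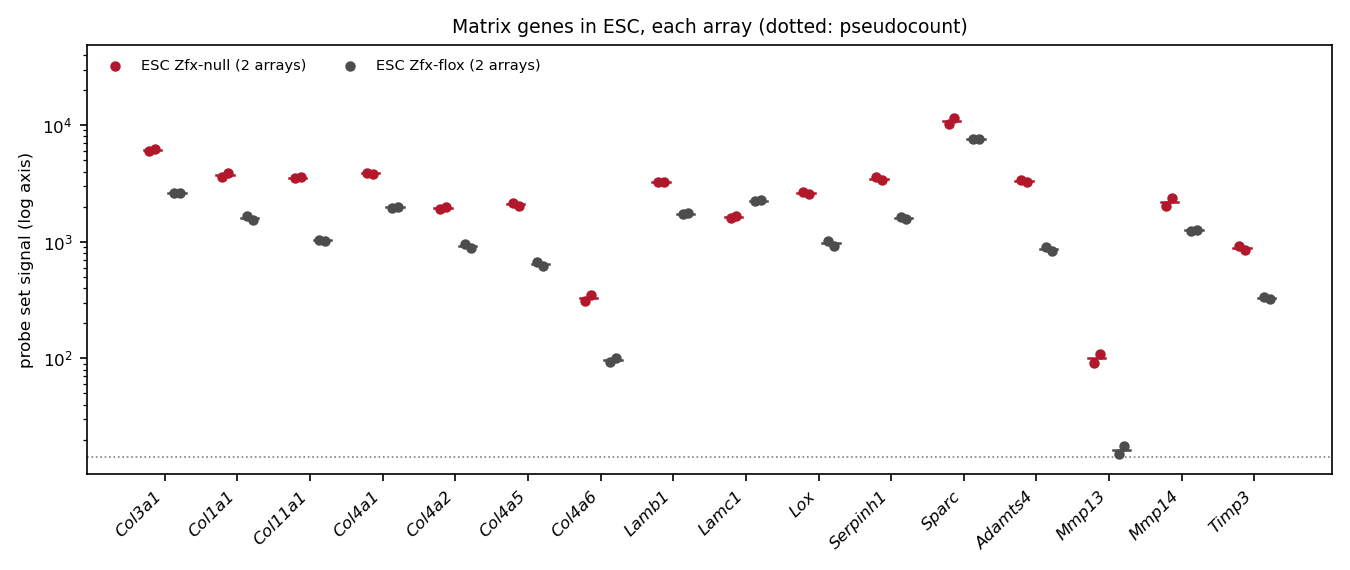
Signal on each array (log axis, arbitrary units) of matrix genes that changed in ESC, with Zfx-null left of Zfx-flox and 1 point per array, short bars at the group means and a dotted line at 14.2. The points of the Zfx-null and Zfx-flox groups do not overlap for any gene drawn.

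Of 11 tested Adamts proteases, 6 rose and 0 fell by limma at the adjusted threshold, where 15.3% of all tested genes rose and 14.3% fell. On the probe sets used no other Adamts gene reached an unadjusted p under 0.05. A second probe set of Adamts16 read 130 and 157 in Zfx-null ESC and 72.7 and 85.6 in Zfx-flox ESC and passed (0.76 ± 0.21, adjusted p = 0.0277), whereas the one used changed by -0.22 (adjusted p = 0.457). Adamts1, Adamts4, Adamts5 and Adamts9 cut aggrecan and versican, the large proteoglycans of cartilage and embryonic matrix. Adamts4 read 3404 and 3234 in Zfx-null ESC and 903 and 827 in Zfx-flox ESC (1.92 ± 0.32, adjusted p = 0.00276). Adamts9 read 951 and 1104 in Zfx-null ESC and 347 and 236 in Zfx-flox ESC (1.79 ± 0.28, adjusted p = 0.00216), with a value of 1.17 when its probe sets were averaged. The neighbours Adamts1 and Adamts5 read 707 and 685, and 597 and 588, in Zfx-null ESC. In Zfx-flox ESC they read 236 and 208, and 179 and 199. Their changes of 1.59 ± 0.16 and 1.58 ± 0.16 were alike in size (adjusted p = 0.000249 and 0.00024). Adamts7 and Adamts12, which cut the cartilage protein COMP, changed by 1.30 ± 0.24 (adjusted p = 0.00426) and 1.47 ± 0.21 (adjusted p = 0.00112). For Adamts12 the mean of its probe sets, of which the other was near the floor, changed by 0.58 (adjusted p = 0.0662). Versican itself (Vcan), no member of the set, read 1951 and 1854 in Zfx-null ESC and 645 and 608 in Zfx-flox ESC (1.58 ± 0.16, adjusted p = 0.000241).

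Of 11 metalloproteinases tested, 5 rose and 1 fell, where 15.3% of all tested genes rose and 14.3% fell. Mmp13, a collagenase of bone and cartilage, read 91.6 and 108 in Zfx-null ESC and was near the floor in Zfx-flox ESC, at 15.0 and 17.8 (1.90 ± 0.25, adjusted p = 0.000941). It reached the filter through the Zfx-null arrays only, so its adjusted p by limma is not separate support for a rise. Mmp3 (stromelysin-1), which cuts proteoglycans and activates other Mmp proenzymes, read 208 and 218 in Zfx-null ESC and 74.3 and 76.6 in Zfx-flox ESC (1.34 ± 0.20, adjusted p = 0.00169). Mmp2 (gelatinase A) and the membrane-bound Mmp14, which activates pro-Mmp2 with the help of Timp2, moved in the same direction. Mmp2 read 2538 and 2608 in Zfx-null ESC and 1194 and 1220 in Zfx-flox ESC (1.08 ± 0.09, adjusted p = 7.06e-05). Mmp14 read 2024 and 2367 in Zfx-null ESC and 1237 and 1260 in Zfx-flox ESC (0.80 ± 0.09, adjusted p = 0.000476). Mmp16, another membrane type, had a mean of 80.2 ± 13.7 in Zfx-null ESC and 43.6 ± 5.08 in Zfx-flox ESC (SD, n = 2 each, arrays separate, 0.70 ± 0.20, adjusted p = 0.0333), and lost its call without any 1 of the 4 ESC arrays (0.0532 to 0.173). Mmp11 (stromelysin-3) fell to 98.7 and 65.8 in Zfx-null ESC against 221 and 228 in Zfx-flox ESC (-1.33 ± 0.26, adjusted p = 0.00659). The gelatinase Mmp9 read 141 and 191 in Zfx-null ESC and 108 and 123 in Zfx-flox ESC and did not pass (adjusted p = 0.295).

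Among the inhibitors, Timp3, which binds to the matrix itself and also blocks Adamts4 and Adamts5, read 923 and 853 in Zfx-null ESC and 334 and 321 in Zfx-flox ESC (1.40 ± 0.12, adjusted p = 0.000107). Timp2 read 1223 and 1118 in Zfx-null ESC and 862 and 780 in Zfx-flox ESC (0.50 ± 0.15, adjusted p = 0.0404), a call near the threshold that was lost in 13 of 21 alternative settings, among them those without any 1 of the ESC or Zfx-cko HSC arrays. Timp1 read 1809 and 1812 in Zfx-null ESC and 1103 and 1035 in Zfx-flox ESC. It did not pass in the fit over all 8 arrays (0.75 ± 0.27, adjusted p = 0.074), where the Zfx-flox HSC values of 1.52 and 17.6 added spread, but did with the ESC arrays alone (adjusted p = 0.000964). With the ESC arrays alone Loxl1, Col18a1 and Lama5 passed as well (adjusted p = 0.0106, 0.0168 and 0.00848), and Mmp16 did not (0.0635). Timp4 changed by 0.01 and did not pass.

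Promoter windows from RefSeq (GRCm38.p6) were available for 65 of the 97 genes, 24 of them among those that rose in ESC and 22 among those tested that did not. The windows of Mmp13 and Mmp3 are shown because both genes belong to the metalloproteinase cluster of chromosome 9 and rose, and because both hold the AP-1 letters TGANTCA close to a TATA box (TATAAA), drawn in capitals. Mmp13 lies at chr9:7272264-7272563 and Mmp3 at chr9:7445572-7445871, both on the plus strand.
Mmp13: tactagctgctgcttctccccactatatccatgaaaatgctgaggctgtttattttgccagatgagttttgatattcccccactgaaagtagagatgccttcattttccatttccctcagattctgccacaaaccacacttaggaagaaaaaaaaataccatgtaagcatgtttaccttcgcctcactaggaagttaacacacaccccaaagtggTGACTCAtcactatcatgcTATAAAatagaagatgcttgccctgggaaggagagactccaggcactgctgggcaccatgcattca
Mmp3: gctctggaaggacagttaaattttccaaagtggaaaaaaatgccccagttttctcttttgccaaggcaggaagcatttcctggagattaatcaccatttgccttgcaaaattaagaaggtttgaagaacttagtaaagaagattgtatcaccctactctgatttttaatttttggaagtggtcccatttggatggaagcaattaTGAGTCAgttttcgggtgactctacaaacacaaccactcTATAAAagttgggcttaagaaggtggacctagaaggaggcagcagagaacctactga
TGANTCA, searched on both strands, was in 13.8% of the matrix windows and in 8.97% of all 27025 windows. It was in 3 of the 24 that rose (12.5%) and in 1 of the 22 that did not (4.55%). The windows of Mmp10, Mmp12, Mmp1a, Mmp1b, Mmp20 and Mmp7, also on chromosome 9, hold both TGANTCA and TATAAA. Of these only Mmp10 was tested in ESC, and it did not pass (0.14, adjusted p = 0.721 by limma). The GC box GGGCGG was in 17 of the 24 that rose (70.8%), in 15 of the 22 that did not (68.2%) and in 38.2% of all windows. TATAAA was in 5 of the 24 that rose (20.8%), in 3 of the 22 that did not (13.6%) and in 15.7% of all windows. AGGCCT, the core of the motif reported for Zfx itself, was in 4 of the 24 that rose (16.7%), in 3 of the 22 that did not (13.6%) and in 11.6% of all windows. The CArG box of serum response factor, searched in 2 spellings, was in 0 of the 65 matrix windows and in 0.0777% and 0.0851% of all windows. No motif searched contains another, and a match describes the window only.

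The calls in ESC rested on more than 1 probe set for many genes. Of the 37 genes past the threshold, 24 had other tested probe sets, 39 in all. Of these 39, 29 passed in the same direction, 0 passed in the opposite direction and 10 did not pass. With no pseudocount 24 of the 37 passed. The calls lost were those of Adamts7, Col11a1, Col12a1, Col13a1, Col5a2, Col6a1, Col8a1, Lamb1, Lamc1, Mmp11, Mmp13, Mmp16 and Timp2 (adjusted p of 0.0603 to 0.161).

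Matrix genes outside the symbol rule were also counted in ESC, on 6 further lists of matrix biology (109 genes). These lists were chosen with earlier results of these data known, so they are not independent support. Of the 100 genes tested, 49 rose and 4 fell, where 15.3% and 14.3% of all tested genes did. By list, 7 of 19 rose among collagen-modifying and export genes, 9 of 19 among basement membrane and elastic fibre glycoproteins, 7 of 17 among proteoglycans, 9 of 16 among matricellular proteins, 10 of 17 among plasminogen, Adam and other protease genes, and 7 of 12 among TGF-beta ligands and receptors. Tgfbi, a collagen-binding protein induced by TGF-beta, read 2637 and 2642 in Zfx-null ESC and 828 and 660 in Zfx-flox ESC (1.82 ± 0.11, adjusted p = 2.32e-05). The procollagen C-proteinases Bmp1 and Tll1, which also activate Lox, changed by 1.42 ± 0.16 and 1.75 ± 0.28 (adjusted p = 0.000418 and 0.00244). The 4 that fell were Sned1 (-2.11), Srgn (-1.71), Crtap (-0.83) and Smoc1 (-0.76). Crtap, part of the enzyme complex that 3-hydroxylates collagen prolines, read 1098 and 1132 in Zfx-null ESC and 1958 and 2033 in Zfx-flox ESC.

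Some markers of matrix-producing cell types also rose. The summed signal of 8 fibroblast and stroma markers, which would also mark feeder cells, was 18703 and 20293 in Zfx-null ESC and 11517 and 12127 in Zfx-flox ESC, and 5 of the 8 rose (Pdgfrb, Twist1, Postn, Acta2 and Tagln). Pdgfra, Thy1 and Cxcl12 did not pass by limma (adjusted p = 0.149, 0.11 and 0.646). Postn is also on the list of matricellular proteins counted above. The summed signal of 7 markers of parietal and primitive endoderm, an early maker of collagen IV and laminin, was 1895 and 1902 in Zfx-null ESC and 843 and 880 in Zfx-flox ESC. Of these, Dab2 and Thbd rose, Gata4, Gata6, Sox17 and Foxa2 did not pass and read under 100 on every ESC array, and Sox7 was too dim to test. Endothelial markers summed to 1239 and 1201 in Zfx-null ESC and 987 and 861 in Zfx-flox ESC, with 2 of 3 tested higher (Kdr and Tek) and Cdh5 and Vwf under 36 on every ESC array. Pecam1, the third tested, read 362 and 331 in Zfx-null ESC and 553 and 448 in Zfx-flox ESC and did not pass (-0.51, adjusted p = 0.0828). No gene of these 3 lists read 0 on both arrays of a group. Their part in the matrix changes was not tested.

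In HSC the matrix genes split between the 2 directions. Of 43 genes tested, 8 rose, where 22.5% of all tested genes rose, and 6 fell, where 19.6% of all tested genes fell. Their median change was 0.06, beside 0.03 over all genes tested. The split depended on the scaling: with quantile normalisation within cell types it was 6 higher and 9 lower, and with median centring 7 and 7. The genes that rose were Sparc, S100a4, Mmp2, Adamts10, Col4a1, Fn1, Timp3 and Col7a1, with Sparc tested through its Zfx-cko arrays only. Those that fell were Col5a1, Adamts20, Mmp14, Timp2, Adamts3 and Serpinh1.

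Sparc, S100a4 and Fn1 all rose. Sparc read 88.4 and 73.7 in Zfx-cko HSC and 8.05 and 8.59 in Zfx-flox HSC, where it was below the floor. Sparc was tested only because its Zfx-cko arrays were bright, so its adjusted p of 1.41e-06 by limma is not separate support for a rise. With no level above the floor in Zfx-flox HSC, the size depends on the constant added, at 2.08 as fitted and 3.28 with none. Another Sparc probe set, too dim on average to be tested, read 71.4 and 62.6 in Zfx-cko HSC and 3.11 and 3.43 in Zfx-flox HSC, and a further one changed by 0.19 and did not pass. S100a4 read 261 and 262 in Zfx-cko HSC and 82.8 and 98.7 in Zfx-flox HSC (1.40 ± 0.15, adjusted p = 0.000123). Fn1 read 94.0 and 75.5 in Zfx-cko HSC and 56.0 and 56.1 in Zfx-flox HSC (0.49 ± 0.11, adjusted p = 0.00693), and lost its call without Zfx-cko array 1 (0.0543).

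Mmp2 rose while its activator Mmp14 and the adaptor Timp2 fell. Mmp2 read 143 and 152 in Zfx-cko HSC and 73.5 and 66.1 in Zfx-flox HSC (0.94 ± 0.09, adjusted p = 4.35e-05), and its other probe set changed by 2.25, which gave a mean of 1.59. Mmp14 read 62.6 and 65.3 in Zfx-cko HSC, against 355 and 381 in Zfx-flox HSC (-2.29 ± 0.09, adjusted p = 8.51e-07). That change rests on 1 probe set: the other 2 read at or under 32.3 on all HSC arrays and were not tested, and the mean of all 3 changed by -1.02. Timp2 read 75.6 and 74.4 in Zfx-cko HSC and 112 and 164 in Zfx-flox HSC (-0.75 ± 0.15, adjusted p = 0.00405). Its other 3 tested probe sets changed by -0.13, 0.07 and -0.23 and did not pass, and averaged over every Timp2 probe set the change was -0.20 (adjusted p = 0.273). Timp3 read 59.1 and 56.5 in Zfx-cko HSC and 37.2 and 40.1 in Zfx-flox HSC (0.45 ± 0.12, adjusted p = 0.0168), and lost its call without Zfx-cko array 1 or Zfx-flox array 1 (0.0694 and 0.0669).

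Col5a1 showed the largest fall of the matrix genes tested in HSC. It read 105 and 106 in Zfx-cko HSC, against 902 and 1026 in Zfx-flox HSC (-3.03 ± 0.12, adjusted p = 8.49e-07). A second probe set read 116 and 129 in Zfx-cko HSC and 266 and 293 in Zfx-flox HSC and passed in the same direction (-1.10 ± 0.10, adjusted p = 3.52e-05), the third was too dim to test, and the mean of all 3 changed by -1.62. Its chain partner Col5a2 read 7.85 and 13.3 in Zfx-cko HSC and 10.3 and 14.1 in Zfx-flox HSC and was not tested. Of the collagen IV pair, Col4a1 passed and Col4a2 did not. Col4a1 read 180 and 134 in Zfx-cko HSC and 105 and 92.3 in Zfx-flox HSC (0.59 ± 0.12, adjusted p = 0.0048), whereas Col4a2 read 72.4 and 57.9 in Zfx-cko HSC and 79.5 and 76.7 in Zfx-flox HSC (-0.23 ± 0.11, adjusted p = 0.151). Col7a1 changed by 0.37 ± 0.12 (adjusted p = 0.0417), a call lost without any 1 of 7 arrays (0.0569 to 0.186), all but Zfx-flox HSC array 1. Serpinh1 fell, to 40.6 and 33.1 in Zfx-cko HSC against 58.2 and 49.6 in Zfx-flox HSC (-0.42 ± 0.11, adjusted p = 0.0158), and lost its call without Zfx-cko array 2 or Zfx-flox array 1 (0.0966 and 0.094). Col1a1, Col3a1 and Col11a1 read under 31 on all HSC arrays and were not tested, and no laminin passed.

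The windows of Col5a1 (chr2:27886175-27886474, plus strand), Mmp14 (chr14:54431348-54431647, plus strand) and Sparc (chr11:55420031-55420330, minus strand) are shown because these genes had the largest differences between the cell types in either direction. Capitals mark GC boxes in Col5a1 and Mmp14 and the AGGCCT core in Sparc.
Col5a1: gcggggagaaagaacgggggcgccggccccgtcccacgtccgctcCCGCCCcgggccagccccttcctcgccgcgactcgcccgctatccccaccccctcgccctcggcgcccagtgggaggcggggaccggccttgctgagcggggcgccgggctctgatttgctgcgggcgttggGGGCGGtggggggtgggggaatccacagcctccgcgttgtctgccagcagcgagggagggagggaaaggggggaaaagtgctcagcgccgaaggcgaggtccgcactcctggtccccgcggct
Mmp14: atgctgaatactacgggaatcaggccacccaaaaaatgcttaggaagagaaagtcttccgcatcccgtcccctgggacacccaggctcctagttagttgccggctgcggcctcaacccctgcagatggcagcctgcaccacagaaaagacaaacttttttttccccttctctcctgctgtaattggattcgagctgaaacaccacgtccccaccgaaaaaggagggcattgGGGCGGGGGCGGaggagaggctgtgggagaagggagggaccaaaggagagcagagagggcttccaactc
Sparc: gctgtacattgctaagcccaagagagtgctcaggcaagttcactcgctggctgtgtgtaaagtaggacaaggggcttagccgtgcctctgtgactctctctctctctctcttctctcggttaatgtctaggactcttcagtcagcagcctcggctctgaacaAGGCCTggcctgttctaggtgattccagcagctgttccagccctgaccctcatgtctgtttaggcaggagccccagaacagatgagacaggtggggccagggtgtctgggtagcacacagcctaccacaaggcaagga

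Of 10 Adamts proteases tested in HSC, 1 rose and 2 fell, where 22.5% of all tested genes rose and 19.6% fell. Adamts20, which in mice is mutated in the belted coat pattern, read 82.1 and 81.7 in Zfx-cko HSC, against 581 and 641 in Zfx-flox HSC (-2.70 ± 0.17, adjusted p = 5.6e-06). It has a single probe set and in ESC read 21.0 and 27.7 in Zfx-null and 29.2 and 26.7 in Zfx-flox, below the filter. Adamts3, a procollagen N-proteinase, read 297 and 343 in Zfx-cko HSC and 477 and 466 in Zfx-flox HSC (-0.54 ± 0.19, adjusted p = 0.0463), a call lost without any 1 of the 4 HSC arrays (0.0875 to 0.223). Adamts10, which binds fibrillin microfibrils, read 99.9 and 72.8 in Zfx-cko HSC and 56.7 and 42.1 in Zfx-flox HSC (0.66 ± 0.18, adjusted p = 0.0167), lost without Zfx-cko array 1 or Zfx-flox array 2 (0.122 and 0.108). Adamts6 read 77.4 and 86.3 in Zfx-cko HSC and 36.5 and 26.5 in Zfx-flox HSC and missed the threshold (1.08, adjusted p = 0.0507).

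**Figure D3:**
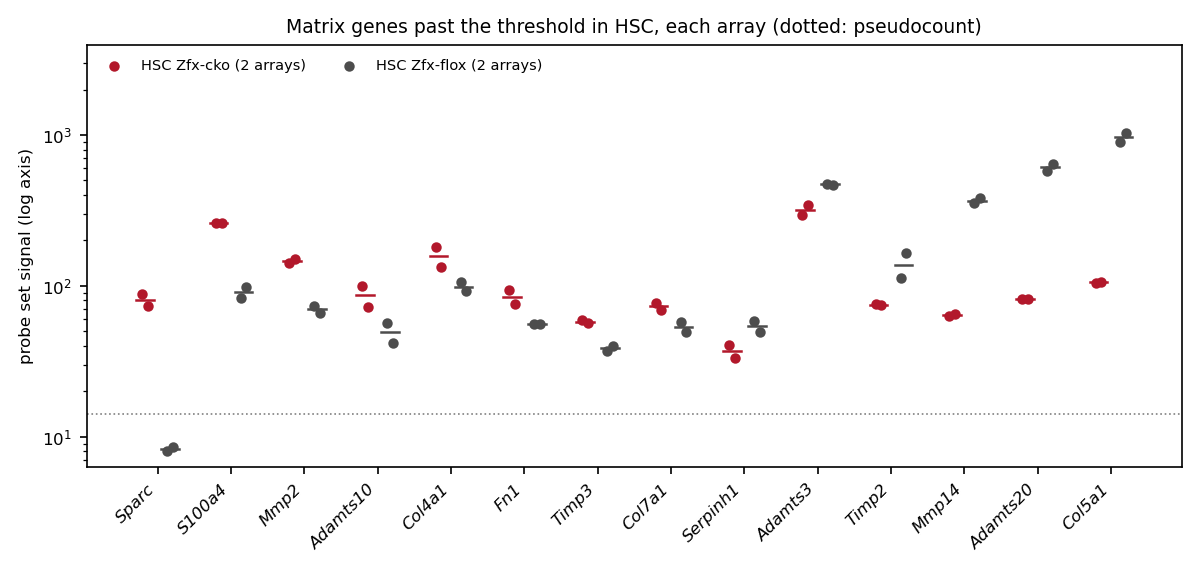
Signal on each HSC array (log axis, arbitrary units) of the matrix genes past the threshold in HSC, with Zfx-cko left of Zfx-flox and 1 point per array, short bars at the group means and a dotted line at 14.2. Col5a1, Mmp14 and Adamts20 lie at 62.6 to 106 in Zfx-cko and at 355 to 1026 in Zfx-flox.

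Of the 14 genes past the threshold in HSC, 7 had other tested probe sets, 10 in all, of which 3 passed in the same direction, 0 passed in the opposite direction and 7 did not pass. Col1a2 and Col6a2 passed on a probe set other than the one used (-0.29 ± 0.10, adjusted p = 0.0495, and -0.54 ± 0.17, adjusted p = 0.0359). With the HSC arrays alone Col7a1, Fn1, Serpinh1 and Timp3 did not pass (adjusted p of 0.0674 to 0.165). Averaged over their probe sets, Adamts10, Adamts3, Fn1 and Serpinh1 did not pass (adjusted p of 0.089 to 0.176), and under median centring Col7a1 and Timp3 did not (0.155 and 0.0963). On the 6 further matrix lists, 19 of 62 tested genes rose and 8 fell in HSC, beside the same 22.5% and 19.6% of all tested genes. Tgfbi read 655 and 578 in Zfx-cko HSC and 271 and 278 in Zfx-flox HSC (1.13 ± 0.11, adjusted p = 5.77e-05). Reck, a membrane-anchored inhibitor of Mmp2, Mmp9 and Mmp14, read 121 and 123 in Zfx-cko HSC and 59.8 and 45.1 in Zfx-flox HSC (1.04 ± 0.16, adjusted p = 0.00091). Adam9, a membrane sheddase, read 1025 and 1095 in Zfx-cko HSC and 481 and 474 in Zfx-flox HSC (1.13 ± 0.08, adjusted p = 8.4e-06). The heparan sulfate proteoglycan Gpc4 fell to 75.5 and 83.6 in Zfx-cko HSC against 245 and 267 in Zfx-flox HSC (-1.53 ± 0.11, adjusted p = 1.46e-05).

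Some genes listed as markers of other marrow cells also differed between the HSC groups, as did Kit, Cd34 and Ptprc. Megakaryocyte markers, of a cell that stores Sparc and Fn1 in its granules, summed to 3875 and 3882 in Zfx-cko HSC and 1282 and 1158 in Zfx-flox HSC, and 2 of 4 rose (Pf4 and Itga2b). Fibroblast and stroma markers summed to 1117 and 1046 in Zfx-cko HSC and 364 and 392 in Zfx-flox HSC. Of the 4 tested, Pdgfrb and Thy1 rose, and Pdgfrb alone read 843 and 810 in Zfx-cko HSC and 197 and 194 in Zfx-flox HSC. Pdgfra read 38.7 and 30.4 in Zfx-cko HSC and 43.5 and 52.8 in Zfx-flox HSC. Neither Pdgfra nor Acta2 passed (-0.35 and 0.09, adjusted p = 0.268 and 0.631 by limma). Cxcl12 and Postn were too dim to test, and Tagln and Twist1 were under the floor on every HSC array. Endothelial markers summed to 513 and 499 in Zfx-cko HSC and 268 and 244 in Zfx-flox HSC, with Tek and Vwf higher of 3 tested and Cdh5 and Pecam1 under a signal of 18. Of B, T and NK markers, Nkg7 was tested and rose, and the list summed to 2814 and 3025 in Zfx-cko HSC and 1163 and 1140 in Zfx-flox HSC. Nkg7 itself read 2775 and 2993 in Zfx-cko HSC and 1130 and 1122 in Zfx-flox HSC, and Cd79a and Cd3e were too dim to test. Granulocyte and monocyte markers summed to 11544 and 10850 in Zfx-cko HSC and 9302 and 9180 in Zfx-flox HSC, and none of the 4 tested passed. The 1 osteoblast marker tested, Sp7, did not pass (adjusted p = 0.625). The sort had removed lineage-positive cells. Whether these marker signals came from other cells or from the sorted cells themselves was not tested. Nor was the part of either in the matrix changes.

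The change of a gene in HSC was then set against its change in ESC by the interaction term of the same fit. Of 40 genes tested, 2 had a higher change in HSC, where 17.5% of all tested genes did, and 16 had a lower one, where 17.5% of all tested genes did. The median difference was -0.49, beside 0.03 over all genes tested. Of 10 genes past the threshold in both cell types, Col4a1, Col7a1, Mmp2, S100a4, Sparc and Timp3 rose in both, while Col5a1, Mmp14, Serpinh1 and Timp2 rose in Zfx-null ESC and fell in Zfx-cko HSC. How many of all tested genes passed in both cell types was not counted. This overlap is therefore not read as particular to matrix genes. For Col5a1 the difference was -4.07 ± 0.17 and for Mmp14 -3.09 ± 0.13 (adjusted p = 3.61e-06 for each), or -2.78 and -1.97 as means of all probe sets. For Serpinh1 it was -1.53 ± 0.16 (adjusted p = 0.000153). For Timp2 it was -1.26 ± 0.22 (adjusted p = 0.00226), a call lost as the mean of all probe sets (-0.56, adjusted p = 0.0514). Sparc was on the other side (adjusted p = 6.21e-05), with a difference of 1.55 as fitted and 2.75 with no constant added, since its Zfx-flox HSC signals were below the floor. It was tested in HSC through the Zfx-cko arrays only. For S100a4, Mmp2 and Col4a1 the differences of -0.04 ± 0.22, -0.14 ± 0.12 and -0.37 ± 0.17 did not pass (adjusted p = 0.912, 0.423 and 0.132). Over the 40 genes the ESC and HSC changes, which share no arrays, had Pearson's r = 0.03 and Spearman's rho = 0.13 across genes, which are not independent of each other.

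**Figure D4:**
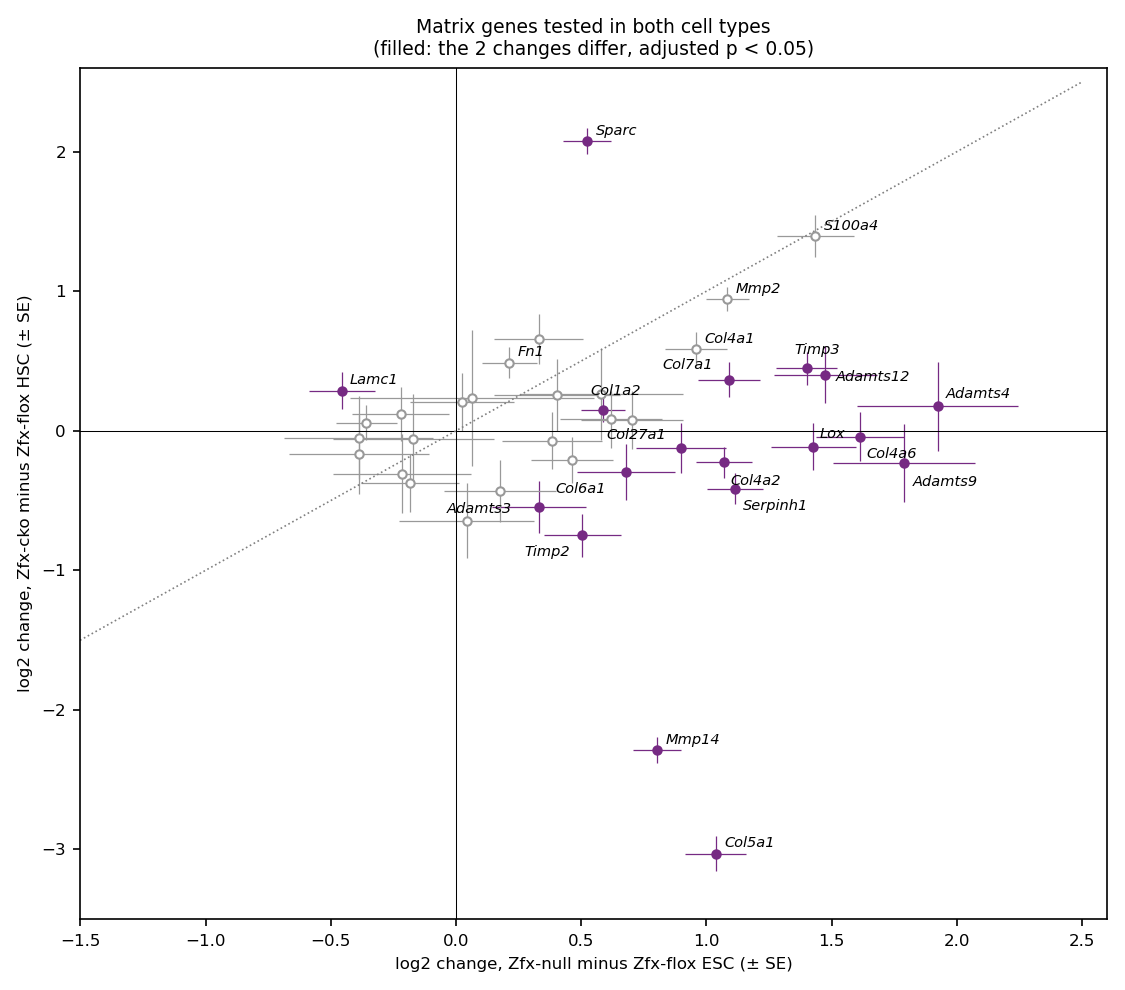
Log2 change in HSC (Zfx-cko minus Zfx-flox, vertical axis) against log2 change in ESC (Zfx-null minus Zfx-flox, horizontal axis) for the 40 matrix genes tested in both, with bars of 1 SE and a dotted line of equal change. Filled points mark the 18 genes whose changes differ at the adjusted threshold, with Col5a1 and Mmp14 far below the line and Sparc above it.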

How the data were processed

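RNA of 8 samples in 4 groups of 2 was read on 1-colour arrays. The deposited values are linear intensities per probe set. The submitters' processing notes name GCOS 1.4 as the software the authors used. On every array they had a mean of 250 after trimming 2% at each end. How probes were summarised is not stated there. The value columns left without a sample numbered 0. The 64 control probe sets were dropped. Names came from the platform annotation: 34945 probe sets had 1 symbol, 932 several and 9160 none, and all 97 members matched the RefSeq table by gene ID.

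Values were transformed as log2(value + 14.2). With limma 3.58.1 (R 4.3.3), 1 linear model with a mean per group took in the 8 arrays together (eBayes with trend, 4 residual degrees of freedom), on 27022 probe sets in each of ESC and HSC and 22829 for the difference, with Benjamini-Hochberg adjustment per comparison. The median SE of a log2 change was 0.169 in both cell types. The number of arrays limits the precision. The arrays share replicate numbers, but nothing says that these mark a shared batch (correlation of deviations 0.284 in ESC and 0.0534 in HSC), so no block was used. Protein sequences were not used here.

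Members and lists were chosen with earlier results of these data known. Genes past the threshold could be named, with values per array for up to 6 per role, besides Lox, Fn1, Sparc, Serpinh1, S100a4 and up to 3 further bright members per role. From the other matrix lists, up to 4 per direction with the largest change and 2 bright ones could be named.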

Additional observations from a re-analysis of the deposited data

Results flagged for a closer look

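The effect of Zfx loss differed between HSC and ESC for 18 matrix genes by the interaction term in limma (adjusted p under 0.05, tested over all probe sets). All values are the HSC change minus the ESC change on the log2 scale. It was higher in HSC for Sparc (1.55), whose size depends on the constant added and which was tested in HSC through the Zfx-cko arrays only. It was also higher for Lamc1 (0.74), which fell in ESC and read 35.2 and 46.0 in Zfx-cko HSC and 35.3 and 26.2 in Zfx-flox HSC. It was lower in HSC for the collagens Col5a1 (-4.07), Col4a6 (-1.66), Col4a2 (-1.30), Col27a1 (-1.02), Col6a1 (-0.97), Col7a1 (-0.72) and Col1a2 (-0.44). Among proteases and inhibitors it was lower for Mmp14 (-3.09), Adamts9 (-2.02, or -1.16 as the mean of its probe sets), Adamts4 (-1.75), Timp2 (-1.26), Adamts12 (-1.07), Timp3 (-0.95) and Adamts3 (-0.87). It was also lower for Lox (-1.54) and Serpinh1 (-1.53). Cell type went together with the number of amplification rounds, and their parts cannot be told apart.

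The Adamts12 call was lost in 5 of the 8 fits that leave out 1 array (adjusted p of 0.0521 to 0.0643: either Zfx-null array, Zfx-flox ESC array 1, Zfx-cko array 1 and Zfx-flox HSC array 1). The Adamts3 call was lost without Zfx-null array 2, Zfx-flox ESC array 1 or any HSC array (0.0538 to 0.107), and the Col1a2 call without Zfx-null array 2, Zfx-flox ESC array 1, Zfx-cko array 2 or Zfx-flox HSC array 2 (0.0792 to 0.0815). The Col6a1 call was lost without Zfx-null array 1, Zfx-flox ESC array 1, Zfx-cko array 1 or Zfx-flox HSC array 2 (0.0726 to 0.09). Leaving out Zfx-null array 1 ended the call of Col27a1 (0.0506), and leaving out Zfx-flox HSC array 2 that of Adamts4 (0.0561). The Adamts4 difference was -2.37 without Zfx-cko array 1 and -1.12 without Zfx-cko array 2.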

How the results depend on the processing

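The counts of members called, and the changes of members past the threshold, were recomputed under up to 13 alternative settings and 8 fits that each leave out 1 array. Fits of 1 cell type alone give no difference, and a gene outside a setting's filter has no value there, which left 17 to 21 values per gene. Of the genes past the threshold, 21 of 37 in ESC, 7 of 14 in HSC and 11 of 18 for the difference kept their call wherever they were tested, and 0 of them changed sign. With no pseudocount, 24 genes passed in ESC, all higher, with 0 lower by limma (4 lower at an unadjusted p under 0.05). The ESC count of lower genes was 5 with the ESC arrays alone and 1 to 5 when 1 array was left out. With the filter at the 60th percentile, where 14 members were tested in HSC and 12 for the difference, 8 passed in HSC (3 higher), and for the difference 5 passed, all lower, with 0 higher (1 higher at an unadjusted p under 0.05). With no filter the difference had 32 calls, 4 higher and 28 lower, of which 2 and 14 were calls of the filtered fit. As the mean of all probe sets it had 1 higher. Leaving out 1 array gave 3 to 9 higher genes in HSC, with 3 without Zfx-cko array 1, and 1 to 3 higher for the difference, with 1 without either Zfx-cko array. Median centring moved the median difference over all genes to -0.09, from 0.03, and the higher share of all difference calls to 37%, from 50%, with 2 members higher and 18 lower. The cause was not tested. Values near 0 that changed sign were those of Lox in HSC (-0.40 to 0.17 when 1 array was left out, 0.17 without Zfx-cko array 2), the S100a4 difference (0.0045 with no pseudocount, -0.23 to 0.16 when 1 array was left out) and the Fn1 difference (-0.057 as the mean of all probe sets). With the replicate number as a block, 34 genes were higher and 3 lower in ESC, 9 and 6 in HSC, and 2 and 16 for the difference; the arrays share only a number. Probe sets near the floor of 14.2, as for most laminins and fibrillar collagens in HSC, carry no measurable change.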
